A study of Sus scrofa with 90 samples.

Results

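XIRP2 encodes Xin actin-binding repeat-containing protein 2, also called myomaxin, and 1 feature of the array is listed under its symbol. It was followed over lesion age in pig muscle as 1 of the 1908 features with a value in every column, out of 4608 listed. The gene was selected on its measured levels over the lesion ages, which were already known to differ. Its levels and differences are therefore given as a description, with no test.

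The muscle was the Longissimus dorsi of 10 piglets, labelled C to L, and the samples were total RNA extracted with a kit for fibrous tissue. Each animal received propylene glycol, a solvent in which drugs for injection are dissolved, by intramuscular injection at several times and at randomly placed sites. The groups were a site of the same animals that was not injected (control, 10 samples) and lesions of 6 h (10 samples), 2 d (10 samples), 7 d (9 samples, none for pig J) and 21 d (9 samples, none for pig L). None of the groups received an injection without propylene glycol, so the needle and the solvent cannot be told apart. Radioactively labelled cDNA from each sample was hybridised to 1 nylon array, and the deposited values are logarithms of a base that neither the labels nor the files used here give.

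XIRP2 is a protein of striated muscle that binds actin filaments through a series of short repeats. It lies at the Z disc and at the junctions where myofibrils are anchored to the membrane, such as the myotendinous junction of skeletal muscle and the intercalated disc of the heart. In the mouse its gene is a target of the transcription factor MEF2A and responds to angiotensin II, and its relative XIRP1 (Xin) is known from injured and regenerating mouse muscle.

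Several facts concern all samples. On the 6 h array of pig F the values appeared to stand under other features than those listed. Its correlation with the mean array was 0.240 as listed and 0.739 after a move by 384 features, while each of the other 47 arrays reached at least 0.718 as listed. That move was the best of shifts of up to 1000 features either way, and its correlation rests on 910 features. Moved in the same way, none of the other 47 arrays exceeded 0.346. It was left out, so 47 samples entered the fit, with 9 at 6 h. Of the 42 samples with both columns, 41 had identical values in them, and for the 6 h lesion of pig J 1 column was a copy of the control of pig I and was left out. The SD of the deposited values within an array averaged 0.976 ± 0.237 in controls and 0.744 ± 0.0926 at 6 h, against 0.805 ± 0.0985 at 2 d and, at the lowest, 0.607 ± 0.159 at 7 d and 0.643 ± 0.196 at 21 d (SD over arrays). Quantile normalization gave every array the same distribution, and levels below are on that scale unless stated. Features listed as CKM, DES, TNNC2 and MYH7, genes of skeletal muscle fibres, had values, while no marker of neutrophils, macrophages, lymphocytes, adipocytes or blood did. In a bulk sample, fewer cells of a type and less RNA per cell cannot be told apart.

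XIRP2 was low in control muscle, high at 6 h, low again at 2 d, and highest at 7 d and 21 d. In controls its level had a lowest value of -0.13 in pig J, a median of -0.03 and a highest of 0.36 in pig D. At 6 h the level ran from 0.76 in pig D over a median of 1.16 to 1.49 in pig E. At 2 d it ran from -0.11 in pig C over a median of 0.0054 to 0.65 in pig E. These 3 groups fall into a low pair and a raised one, since every 6 h lesion exceeded every control and every 2 d lesion. At 7 d the level ran from 1.61 in pig C over a median of 1.99 to 2.67 in pig D. At 21 d it ran from 1.59 in pig C over a median of 2.21 to 2.89 in pig D. All 18 lesions of the later ages stood above all lesions of 6 h on this scale.

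**Figure D1:**
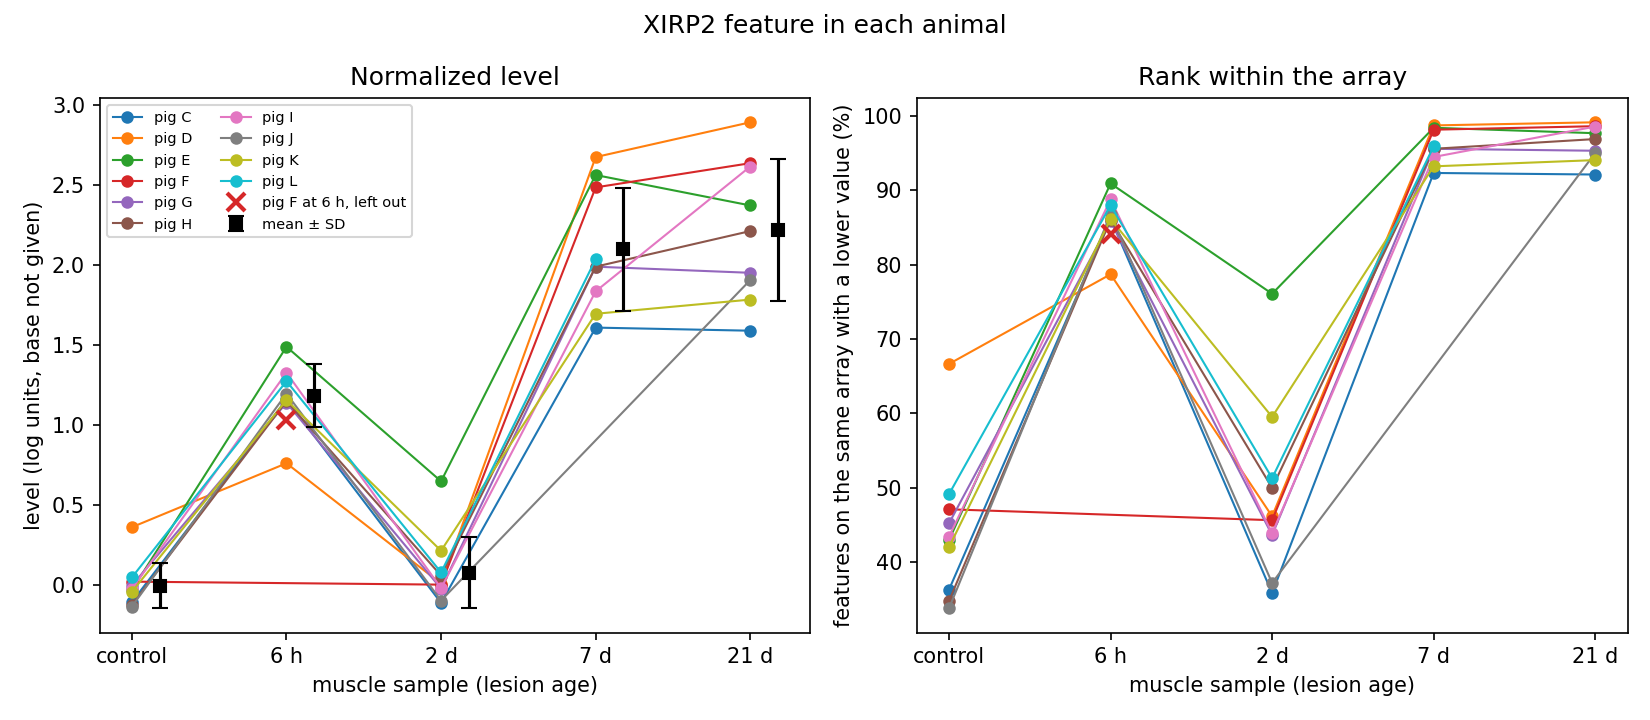
Level of the XIRP2 feature in each muscle sample (left, normalized log units, base not given) and the percentage of the 1908 features of the same array with a lower deposited value (right), against lesion age. Coloured points are the pigs C to L, joined across an age without a sample, and black squares are means ± SD (n = 9 to 10). The cross is the value listed for XIRP2 on the 6 h array of pig F. That array appeared out of register with the feature list, so the value may belong to another feature, and it is in no mean. The 2 d lesions overlap the controls, and the 7 d and 21 d lesions sit above the 6 h lesions.

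The group means were -0.0037 ± 0.14 in 10 controls, 1.18 ± 0.20 in 9 lesions of 6 h, 0.08 ± 0.22 in 10 lesions of 2 d, 2.10 ± 0.39 in 9 lesions of 7 d and 2.22 ± 0.44 in 9 lesions of 21 d (mean ± SD). In that order of levels the neighbours control and 2 d, and the neighbours 7 d and 21 d, differed by less than their spread and overlapped. The 6 h group stood apart from both pairs. On this scale the SD over animals was larger at 7 d and 21 d than in the other groups. For 7 d that depended on the scale, since on deposited values the SD was 0.30 at 7 d and 0.32 at 6 h. At 21 d the SD was the largest on deposited values too, at 0.58. For the percentage of features with a lower value, the SD was smallest at 7 d and 21 d (2.28 and 2.40, against 9.46 in controls). That percentage has an upper limit, and the values at 7 d and 21 d lie near it, with little room for spread.

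The place of XIRP2 among the features of its own array, which needs no scaling between arrays, followed the same course. In controls a median of 43.2% of the features had a lower value than XIRP2 (33.8% to 66.6%). The median was 86.2% at 6 h (78.7% to 90.9%), 45.9% at 2 d (35.8% to 76.1%), then 95.6% at 7 d (92.3% to 98.7%) and 96.9% at 21 d (92.1% to 99.2%). In every 7 d and 21 d lesion the feature was thus above at least 92.1% of the array's features, and in the controls and 2 d lesions above at most 76.1%.

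On the deposited values, without normalization between arrays, the means were -0.0076 ± 0.20 in controls, 1.16 ± 0.32 at 6 h, 0.06 ± 0.19 at 2 d, then 1.66 ± 0.30 at 7 d and 1.85 ± 0.58 at 21 d, with the same numbers of samples. The order of the groups was the same. On this scale the 7 d and 21 d lesions overlapped the 6 h lesions.

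Within animals, XIRP2 was higher at 6 h than in the control of the same pig in 9 of 9 animals. The difference averaged 1.19 ± 0.32 (SD, n = 9) and ran from 0.40 in pig D to 1.52 in pig E. Pig D had both the highest control and the lowest 6 h lesion. The fitted difference was 1.21 (SE 0.115), and 5 of the 1908 features had a larger one. By limma, with an adjusted p below 0.05, 11.8% of all features were called at 6 h (6.92% higher, 4.87% lower), and in 1.89% of all features every 6 h lesion was higher than every control, as in XIRP2. The 6 h array of pig F listed 1.03 for XIRP2 in place and 1.16 when moved into register, both inside the range of the other 6 h lesions. With that array kept in place the fitted difference was 1.16, and with it moved it was 1.17. The moved array has values for 910 of the 1908 features.

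At 2 d XIRP2 was higher than in the control of the same animal in 6 of 10 pigs and lower in 4. The difference averaged 0.08 ± 0.26 (SD, n = 10) and ran from -0.35 in pig D to 0.68 in pig E. The fitted difference was 0.08 (SE 0.112), and 481 features had a larger one. Few features moved at this age. At this age limma called 0.734% of all features higher and 0% lower (80 were lower at an unadjusted p below 0.05), and in 0.262% the groups did not overlap.

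At 7 d XIRP2 was higher than in the control in 9 of 9 animals, by 2.08 ± 0.31 (SD, n = 9). The smallest difference was 1.71 in pig C and the largest 2.59 in pig E. The fitted difference of 2.08 (SE 0.115) was exceeded by 2 features. On the normalized scale it corresponds to 4.23-fold if the logarithms are to base 2 and to 8.02-fold if they are natural. On deposited values the fitted difference was 1.65, so the fold would be smaller. Of all features 25.4% were called at this age (10.7% higher, 14.6% lower), and in 2.99% every lesion was higher than every control.

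At 21 d XIRP2 was again higher in 9 of 9 animals, by 2.23 ± 0.35 (SD, n = 9). The smallest difference was 1.69 in pig C and the largest 2.64 in pig I. The fitted difference of 2.22 (SE 0.115), 4.66-fold in base 2 or 9.22-fold on the natural scale, was exceeded by 3 features. On deposited values it was 1.87, and the fold would again be smaller. Of all features 14.7% were called (6.5% higher, 8.23% lower), and in 1.31% every lesion was higher than every control. The 4 comparisons share the control samples. The split between directions depended on the scaling, since on deposited values 103 features were called higher and 393 lower at 6 h, 249 and 495 at 7 d, and 178 and 530 at 21 d.

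**Figure D2:**
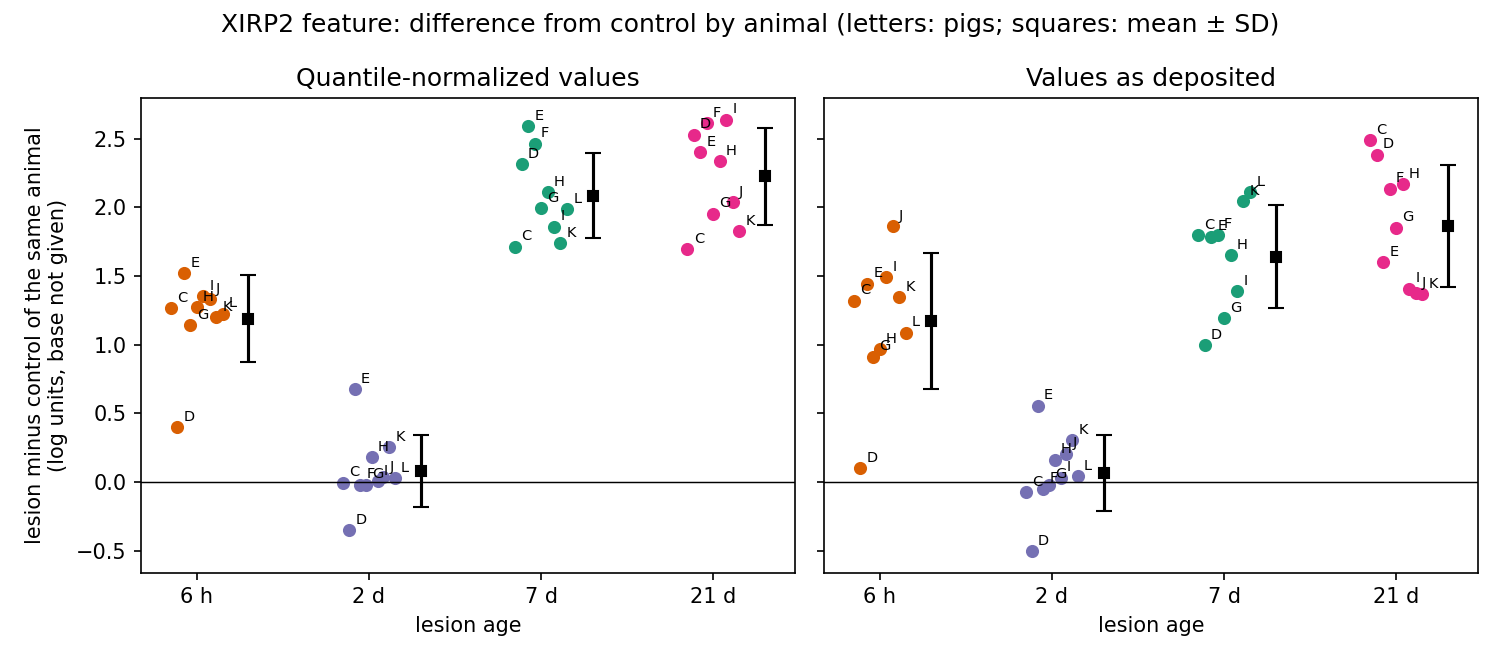
XIRP2 in each lesion minus the control of the same animal, on normalized values (left) and on the deposited values (right), in log units of unknown base. Letters are pigs and black squares with bars are means ± SD (n = 9 at 6 h, 7 d and 21 d, n = 10 at 2 d). All points at 6 h, 7 d and 21 d lie above 0, and pig D is the lowest at 6 h on both scales, at 0.40 and 0.0996.

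Up to 7 d, each step from 1 lesion age to the next had 1 direction in every animal. The 2 d lesion was lower than the 6 h lesion in 9 of 9 animals, with a mean difference of -1.10 ± 0.21 (SD, n = 9) and a range of -1.35 to -0.75. The 7 d lesion was higher than the 2 d lesion in 9 of 9 animals, by 2.00 ± 0.36, with a range of 1.48 to 2.66. In neither step did the groups overlap. By limma 6.18% of all features were called between 2 d and 6 h and 16.5% between 7 d and 2 d. Over all features, 1.21% had every 2 d lesion below every 6 h lesion, and 2.1% had every 7 d lesion above every 2 d lesion.

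The 7 d lesion was higher than the 6 h lesion in 8 of 8 animals, by 0.87 ± 0.47 (SD, n = 8). The 21 d lesion was higher than the 6 h lesion in 8 of 8 animals, by 0.99 ± 0.53 (n = 8). In both, pig D had the largest difference, at 1.91 and 2.13. Groups that did not overlap in this direction were found for 0.21% of all features at 7 d against 6 h and for 0.524% at 21 d against 6 h. On deposited values the counts were 7 of 8 and 6 of 8 animals. Between 21 d and 7 d the difference was 0.15 ± 0.29 (n = 8), from -0.19 in pig E to 0.78 in pig I, and 5 of 8 animals were higher at 21 d.

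Whether a pig high at 1 age was high at another was not used in choosing the gene. Across animals the level at 21 d correlated with that at 7 d at r = 0.78 and rho = 0.80 (n = 8, two-sided exact permutation p = 0.0299 and 0.0204). With the 2 animals farthest from the median left out, r was 0.55. The level at 21 d correlated with that in the control at r = 0.69 and rho = 0.73 (n = 9, exact permutation p = 0.0146 and 0.0311), and r was 0.44 without the 2 farthest animals. The level at 7 d correlated with that in the control at r = 0.66 and rho = 0.66 (n = 9, exact permutation p = 0.0249 and 0.0589), and r was 0.55 without the 2 farthest. Over the 10 pairs of groups none passed after adjustment (smallest adjusted permutation p = 0.0997 for r and 0.156 for rho). Between 6 h and control the correlation was r = -0.66 and rho = -0.17 (n = 9, exact permutation p = 0.112 and 0.678), and r was 0.46 without the 2 farthest. On deposited values r was -0.11 between 21 d and 7 d and -0.18 between 7 d and control, so these signs depend on the scaling. On those values r was 0.76 between 21 d and control, -0.76 between 6 h and control and -0.81 between 21 d and 6 h (adjusted permutation p = 0.0514 for each). In the same order rho was 0.62, -0.50 and -0.86 (adjusted permutation p = 0.429, 0.592 and 0.107). Without the 2 farthest animals r was 0.11, -0.72 and -0.91.

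The level was also set against the SD of the deposited values of the same array, because that SD differed between the groups. At 7 d the normalized XIRP2 level was higher on arrays with a smaller SD, with r = -0.83 and rho = -0.81 (n = 9, two-sided exact permutation p = 0.00843 and 0.0108, adjusted over the 5 groups 0.0421 and 0.0538). Without the 2 farthest arrays r was -0.70. At 21 d r was -0.49 (rho = -0.33), at 6 h 0.53 (rho = 0.57), in controls -0.065 (rho = -0.22) and at 2 d -0.014 (rho = 0.18), none past the threshold in these permutation tests (smallest adjusted p = 0.293). On deposited values, read after the data were seen, r was 0.58 at 7 d (adjusted permutation p = 0.169) and 0.93 at 6 h (rho = 0.90, exact permutation p = 0.000457, adjusted p = 0.00229). The XIRP2 level thus moved with the spread of the array at 7 d on normalized values and at 6 h on deposited values, in opposite directions. A deposited level far from the middle of its array shares in that array's spread, so its correlation with the SD was partly set by the scale. By rank within the array r was -0.83 at 7 d and 0.57 at 6 h (adjusted permutation p = 0.0369 and 0.176). Whether other features of similar rank show the same was not tested. With array SD as a covariate the fitted differences were 1.13 at 6 h, 0.02 at 2 d, then 1.97 at 7 d and 2.11 at 21 d.

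**Figure D3:**
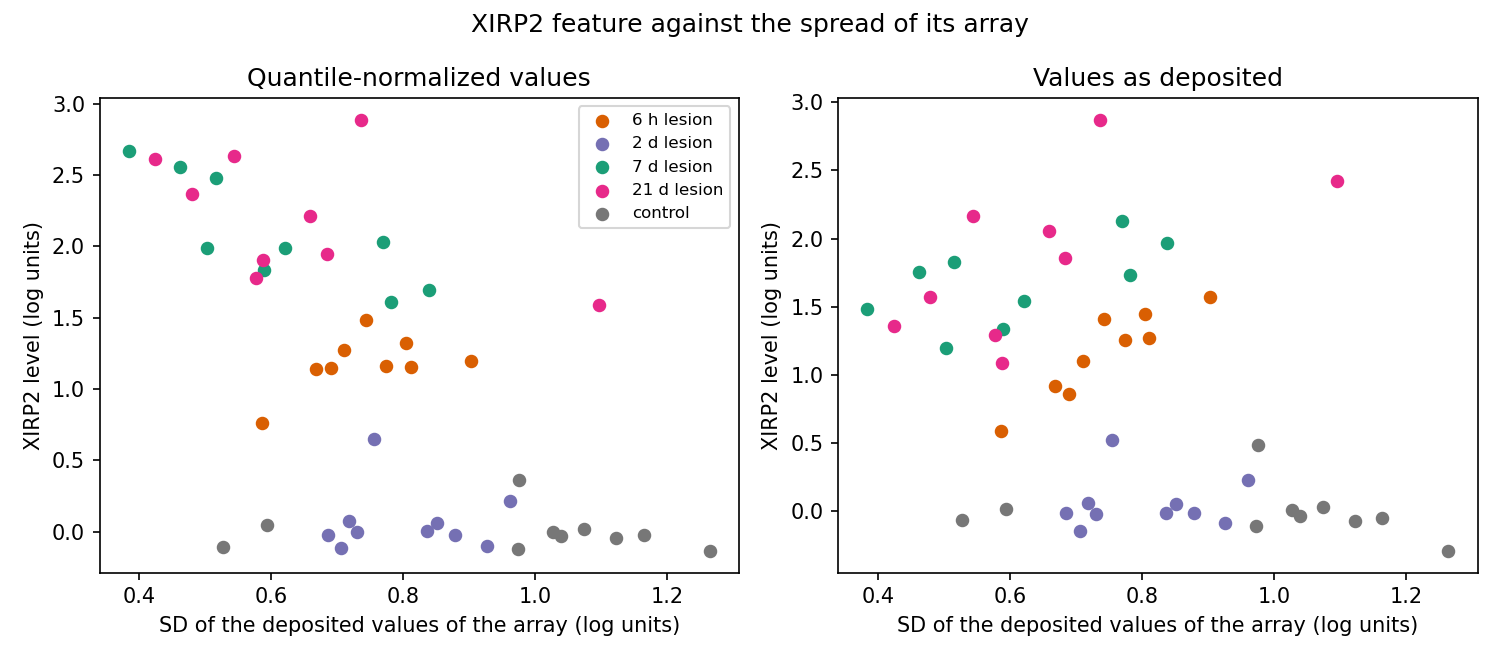
XIRP2 level of each sample against the SD of the deposited values of its array, on normalized values (left) and deposited values (right), both axes in log units of unknown base. Each point is 1 of the 47 samples, coloured by group. At 7 d the normalized level falls with the SD (r = -0.83) and the deposited level does not (r = 0.58), while the 2 d lesions and controls stay low at every SD.

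The features most like XIRP2 were found by the Pearson correlation of normalized values over the 47 samples, as a description. Samples share animals, arrays and groups, and the correlation includes the differences between groups. Features chosen in this way were chosen partly for how they differ between the ages, so their differences are given here with no test. Of the 1907 other features 5 had r above 0.9, 22 had r above 0.8 and 1 had r below -0.8. After the group means were taken out the highest r was 0.752. Among features without a symbol, feature 5139 had r = 0.97 (0.51 within groups). Its level averaged 0.99 ± 0.10 in controls, 2.34 ± 0.29 at 6 h, 1.08 ± 0.19 at 2 d, then 3.44 ± 0.38 at 7 d and 3.75 ± 0.15 at 21 d. Its fitted differences from control were 1.34 at 6 h, 0.09 at 2 d, then 2.46 at 7 d and 2.77 at 21 d. It was higher than in the control in 9 of 9 animals at 6 h, 7 d and 21 d and in 7 of 10 at 2 d. Feature 5127 had r = 0.94 (0.58 within groups), with differences of 0.48 at 6 h, -0.11 at 2 d, then 1.26 at 7 d and 1.52 at 21 d. It was higher in 9 of 9 animals at 6 h, 7 d and 21 d and in 1 of 10 at 2 d.

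Of the 121 genes with a symbol, taking for each the feature with the highest mean, the 5 most like XIRP2 were ANPEP (r = 0.75), JAK1 (0.68), UGP2 (0.60), MYH7 (0.56) and HSPE1 (0.55). At 6 h, 7 d and 21 d the differences of all 5 were smaller than those of XIRP2. ANPEP, aminopeptidase N, a peptidase on the surface of fibroblasts, myeloid and other cells, averaged 0.13 ± 0.16 in controls, 0.29 ± 0.21 at 6 h, 0.32 ± 0.25 at 2 d, then 0.76 ± 0.34 at 7 d and 1.26 ± 0.35 at 21 d. Its fitted differences from control were 0.17 at 6 h, 0.64 at 7 d and 1.12 at 21 d (SE 0.120). A second feature listed as ANPEP had differences of -0.044, 0.0080 and 0.013 at those ages.

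JAK1, a tyrosine kinase of cytokine receptors, averaged -0.18 ± 0.15 in controls, 0.50 ± 0.25 at 6 h, 0.0044 ± 0.10 at 2 d, then 0.56 ± 0.43 at 7 d and 0.36 ± 0.27 at 21 d. It was higher than in the control by 0.68 at 6 h in 9 of 9 animals, by 0.18 at 2 d in 9 of 10, by 0.74 at 7 d in 8 of 9 and by 0.54 at 21 d in 9 of 9 (SE 0.111, at 2 d 0.107). Unlike XIRP2, whose later lesions stood above the 6 h lesions, JAK1 differed by 0.05 at 7 d against 6 h (higher in 4 of 8 animals) and by -0.14 at 21 d against 6 h (higher in 2 of 8).

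UGP2, the enzyme that forms UDP-glucose, the glucose donor of glycogen synthesis, was higher by 0.43 at 6 h, 0.68 at 7 d and 0.49 at 21 d (SE 0.133). Its feature lies 9 places before XIRP2 on the feature list. MYH7, the slow myosin heavy chain, was higher in this feature by 0.36 at 6 h, 0.47 at 7 d and 0.37 at 21 d (SE 0.0920), while another of its 4 features was at -0.40, -0.59 and -0.37 at those ages. HSPE1, the mitochondrial co-chaperonin, was higher by 0.66 at 6 h, 0.58 at 7 d and 0.32 at 21 d (SE 0.0886). At 2 d UGP2, MYH7 and HSPE1 were at 0.28, 0.25 and 0.28. On deposited values the signs of HSPE1 at all 3 ages and of MYH7 at 7 d and 21 d were negative. Of these, HSPE1 at 6 h (-0.029, SE 0.254) and MYH7 at 7 d and 21 d (-0.0065 and -0.071, SE 0.133) were smaller than their SE.

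With the same choice of 1 feature per gene, the 3 genes with the lowest correlation were QDPR (r = -0.71), CKM (r = -0.66) and POMGNT1 (r = -0.62). Feature 5336, 1 of 12 listed as TNNC2, fast troponin C, was lower still (r = -0.75) but is not the feature with the highest mean. QDPR, which regenerates tetrahydrobiopterin, was at -0.34 at 6 h, -0.38 at 7 d and -0.34 at 21 d (SE 0.0771). CKM, the muscle creatine kinase, was at -0.25 at 6 h, -0.37 at 7 d and -0.24 at 21 d in this feature (SE 0.0765). The 10 features listed as CKM disagreed, and feature 6100 was at 0.56 at 6 h. By limma 1 of the 10 was called higher and 1 lower at 6 h, 1 higher and 5 lower at 7 d, and 0 higher and 4 lower at 21 d. Over all features 6.92% were called higher and 4.87% lower at 6 h, 10.7% and 14.6% at 7 d, and 6.5% and 8.23% at 21 d. POMGNT1, an enzyme that glycosylates alpha-dystroglycan, was at -0.54 at 7 d and -0.56 at 21 d (SE 0.103). Features 5748 and 6516, without a symbol, both had r = -0.80. At 6 h, 7 d and 21 d feature 5748 was at -0.47, -0.63 and -0.50 and feature 6516 at -0.43, -0.69 and -0.60. At 2 d these 5 features were between -0.20 and -0.07.

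**Figure D4:**
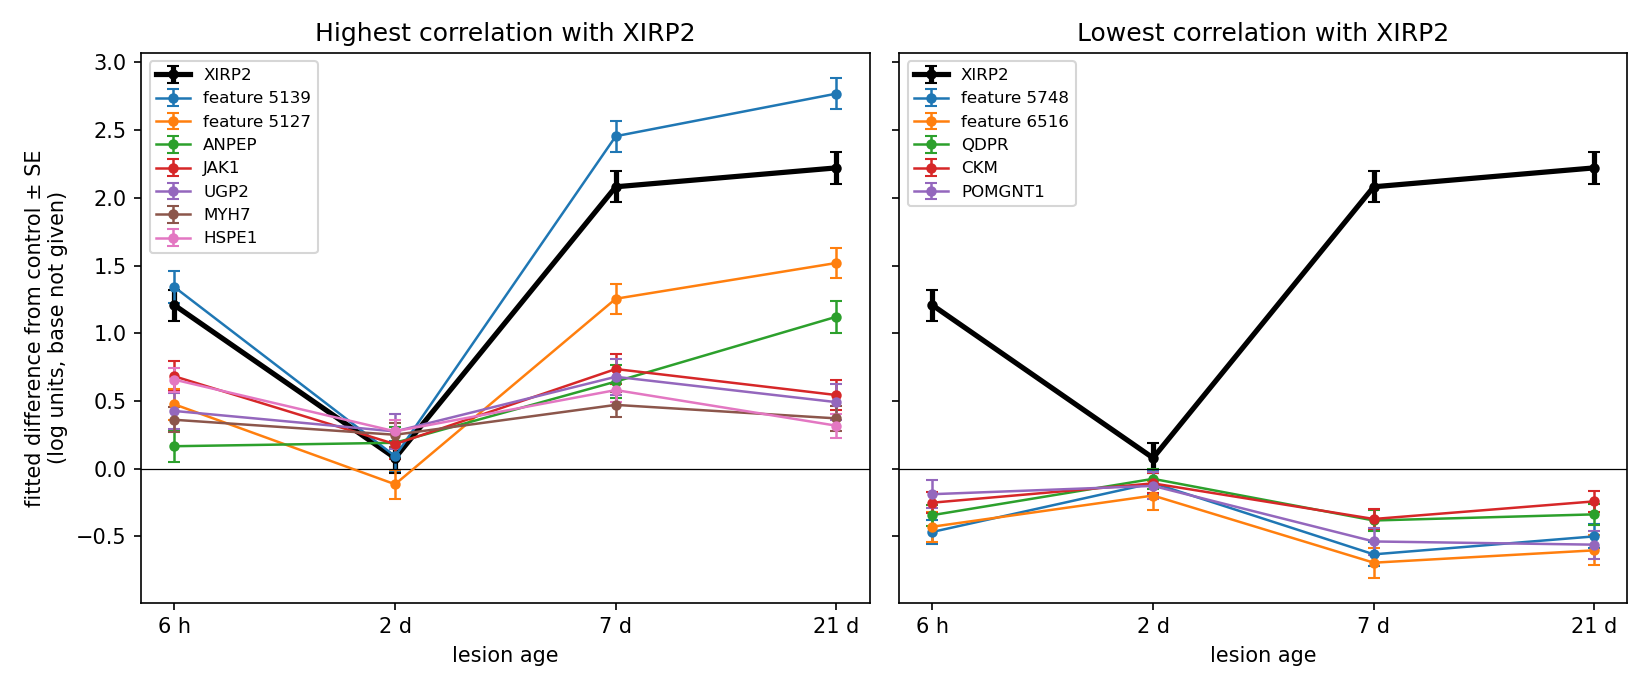
Fitted differences from control in log units of unknown base, ± SE, at the 4 lesion ages for XIRP2 (thick line) and for the features with the highest (left) and lowest (right) correlation with it over 47 samples. Feature 5139 follows XIRP2 at every age, at 1.34, 0.09, 2.46 and 2.77, while the genes with a symbol change less at 6 h, 7 d and 21 d.

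Over all features but XIRP2, 65 features (3.41% of 1907) were called higher by limma at 6 h, 7 d and 21 d and not called at 2 d. Of these, 7 carry a symbol, for HSPE1, JAK1, MYH7, MYLPF, NPPA and UGP2. In 46 the level was also called lower at 2 d than at 6 h and higher at 7 d than at 2 d, among them HSPE1, JAK1 and MYLPF. MYLPF is the regulatory light chain of fast myosin. In the other direction, 54 features (2.83%) were called lower at 6 h, 7 d and 21 d and not called at 2 d. Of these, 10 carry a symbol, for CKM, ENO3, HTT, MYH7, QDPR, RPL11, RPS20, TNNC2 and TPM2. MYH7 is in both sets, through different features. The condition at 2 d removes little, since 0.734% of all features were called at that age.

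Few partners of XIRP2 were measured. Of 49 genes of the Z disc, the muscle junctions and the Xin family's partners, 4 had values (MYOZ1, DES, FHL1 and ANKRD1), and XIRP1 was not among them. None of the 4 was called by limma at any age, in comparisons in which 11.8%, 0.734%, 25.4% and 14.7% of all features were called. With 1 feature per gene, that of the highest mean, there were 2 of the 4 at an unadjusted p below 0.05 at 6 h, MYOZ1 lower and FHL1 higher. There was 1 at 7 d, with 0 at the other ages. Their median difference was -0.17 at 6 h, 0.0072 at 2 d, then -0.11 at 7 d and -0.15 at 21 d. The medians of all features were -0.016, -0.021, -0.0089 and -0.00092 at the same ages. MYOZ1, calsarcin-2, which binds alpha-actinin, was at -0.47 at 6 h and -0.50 at 7 d in this feature (SE 0.203, limma adjusted p = 0.129 and 0.0667). The other 2 of its 3 features were at -0.048 and 0.37 at 6 h and at 0.039 and 0.21 at 7 d, and neither was called. FHL1, a LIM-domain protein of the sarcomere, was at 0.14 at 6 h, 0.11 at 7 d and 0.12 at 21 d (SE 0.0677, adjusted p = 0.168, 0.249 and 0.234). DES, desmin, the intermediate filament around the Z disc, was at -0.35 at 21 d in this feature (SE 0.240, adjusted p = 0.365). The other 2 of its 3 features were at 0.026 and 0.23 at that age, and neither was called.

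Of 36 genes of actin and the thin filament, 9 were measured. With 1 feature per gene, 1 of the 9 was called at 6 h, 1 at 7 d and 3 at 21 d, where 11.8%, 25.4% and 14.7% of all features were called. The member called at 6 h and 7 d was TPM2, beta-tropomyosin. It fell by 0.56 at 6 h in 9 of 9 animals, by 0.46 at 7 d and by 0.47 at 21 d (SE 0.109, limma adjusted p = 0.000355, 0.00128 and 0.00232), while the other 2 features listed as TPM2 were not called. Features other than those with the highest mean were called too. Of 12 listed as TNNC2, 2 were called lower at 6 h, 5 at 7 d and 3 at 21 d, where 4.87%, 14.6% and 8.23% of all features were called lower. At 7 d 1 feature of TNNT3, fast troponin T, was called lower and 1 of ACTB higher. At 21 d TPM3, the slow tropomyosin, fell by 0.35 (adjusted p = 0.0135), and ACTB, cytoplasmic beta-actin, rose by 0.35 (adjusted p = 0.0482). The ACTB call was lost when any 1 of 7 animals (C, D, E, F, I, K and L) was left out (adjusted p = 0.0628 to 0.129) and under 7 of 12 other alternatives, and 1 other of its 7 features was also called higher. The medians of the list were 0.08, -0.05, -0.03 and -0.12 at the 4 ages. Of 32 genes of MEF2 and its upstream signals only MAPK12, a p38 kinase of muscle, was measured, and it fell by 0.27 at 6 h and 0.29 at 7 d (adjusted p = 0.0178 and 0.00581). Its calls were lost without pig E, G or H at 6 h and without pig E at 7 d (adjusted p = 0.051 to 0.0546), and under 3 and 5 of 12 other alternatives at those ages.

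Of 19 genes of slow and cardiac fibres and of load, 6 were measured. With 1 feature per gene, MYH7 and NPPA, atrial natriuretic peptide, were called higher at 6 h, 7 d and 21 d. These were 2 of the 6 where 6.92%, 10.7% and 6.5% of all features were, and the other 4 were not called. Of 4 features listed as MYH7, however, 1 was called higher and 1 lower at each of these ages. The feature called lower was at -0.40, -0.59 and -0.37 (limma adjusted p = 0.0185, 0.000178 and 0.027). The MYH7 feature called higher was also chosen by its likeness to XIRP2, which partly set its calls, so no p is given for it. Its calls were lost under 3, 2 and 3 of 12 alternatives. NPPA rose by 0.32, 0.35 and 0.35 (SE 0.0998, limma adjusted p = 0.0299, 0.00867 and 0.0142), and lost its call without pig D, E, H or K at 6 h and without pig D or J at 21 d (adjusted p = 0.0546 to 0.119), and under 4, 1 and 1 of 12 other alternatives. The medians of the list were 0.02, 0.08, 0.05 and -0.0051 at the 4 ages. Of 14 fibroblast and matrix genes ANPEP and FN1, fibronectin, were measured. ANPEP was chosen by its likeness too, which partly set its calls as higher at 7 d and 21 d, and its second feature was not called. FN1 was at -0.19 at 6 h, -0.18 at 7 d and -0.23 at 21 d and was not called. DES was the single measured gene of 21 for regeneration, and PECAM1, an endothelial adhesion molecule, the single one of 9 for vessels, and neither was called by limma or had an unadjusted p below 0.05 at any age. The defining markers of the cells that enter a lesion could therefore not be set beside XIRP2, and their part in its level was not tested.

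The features listed just before XIRP2 were called at none of the ages. MYOZ1 in feature 7646, the adjacent place, had a mean of -0.04 ± 0.22 in controls, 0.32 ± 0.33 at 6 h, -0.06 ± 0.17 at 2 d, then 0.19 ± 0.26 at 7 d and 0.30 ± 0.44 at 21 d. Its differences were 0.37, -0.02, 0.21 and 0.35, none called by limma (adjusted p = 0.0643, 0.963, 0.282 and 0.0717). It was nevertheless higher than in the control in 8 of 9 animals at 6 h, 6 of 10 at 2 d, 6 of 9 at 7 d and 8 of 9 at 21 d. Its correlation with XIRP2 was 0.53 over all samples and 0.52 within groups, against 0.21 and 0.34 for feature 7645. Feature 7645 was at -0.09, -0.04, 0.02 and 0.09, none called. At 7 d and 21 d the XIRP2 feature differed from control by 2.08 and 2.22. Within groups, however, 49 features within 50 places of XIRP2 had a median correlation with it of 0.21, against -0.031 for the 1858 farther away. Pig E, highest in XIRP2 at 2 d at 0.65, was also highest in feature 7645 (0.55) and feature 7646 (0.35) at that age. With a running median over the feature list subtracted, the XIRP2 differences were 1.13 at 6 h, 0.06 at 2 d, then 2.00 at 7 d and 2.15 at 21 d.

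**Figure D5:**
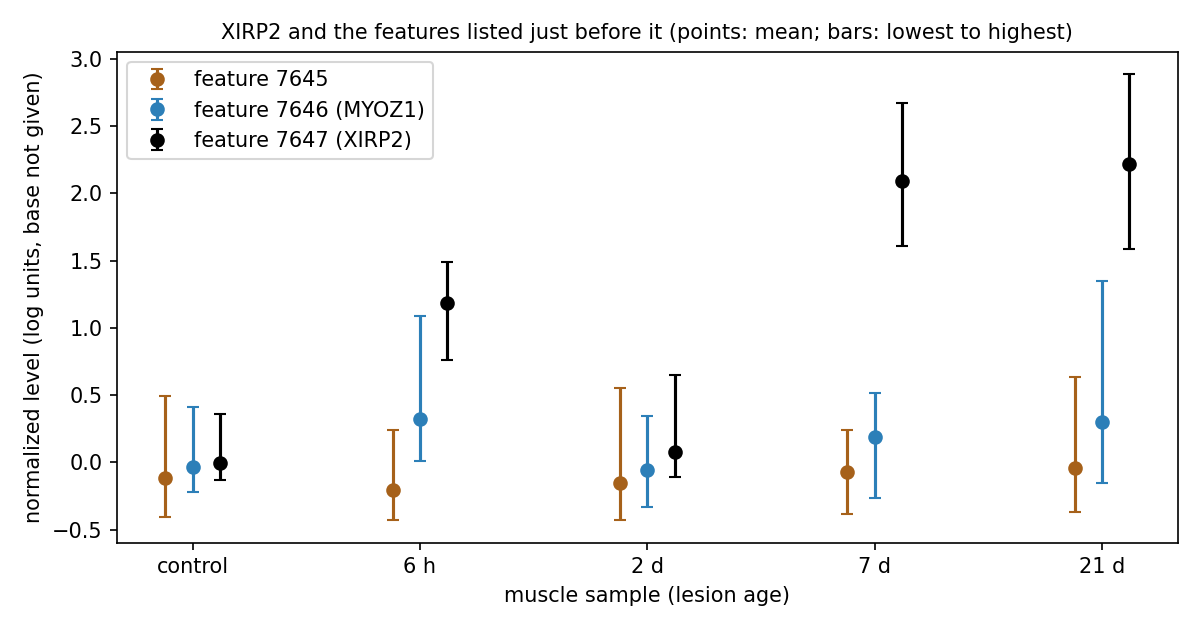
Normalized level (log units, base not given) of XIRP2 and of the features 1 and 2 places before it on the feature list, by group. Points are means and bars run from the lowest to the highest sample (n = 9 to 10). XIRP2 differs from its own control level by 2.22 at 21 d, while the largest fitted difference of a neighbour is 0.37, in feature 7646 at 6 h.

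The link between symbol and feature could not be settled from the values. XIRP2 has 1 feature, so no second one could be set beside it. Over 347 pairs of features that share a symbol the median correlation was 0.025, against -0.006 over 20768 pairs with different symbols. The values above belong to the feature that carries the symbol XIRP2.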

How the data were processed

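The deposited values are log values (base, centring and software: not given in the sources used here), made by the authors per the labels' design text from imaging-plate scans of 33P-labelled nylon cDNA arrays quantified with a grid of fixed spot diameter. All 90 columns were mapped to 48 samples by their labels, and duplicate columns were averaged. Array medians ranged over 0.112, and values were quantile-normalized. limma 3.58.1 in R 4.3.3 (lmFit, eBayes) fitted group and animal over all 5 groups and 47 samples, with Benjamini-Hochberg adjustment over 1908 features per comparison and a threshold of 0.05. The pairing is the design's, since every animal gave a control and its lesions. Deviations from group means correlated at a median of -0.024 within and -0.0035 between animals. Replicates are different animals. Precision is limited by the number of arrays, which count no molecules. Correlations across animals used permutation tests (scipy 1.17.1, numpy 2.4.6), exact below 10 animals and with 100000 draws at 10. Figures were drawn with matplotlib 3.10.9.

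XIRP2, the 11 gene lists (208 genes) and the tests were chosen with earlier results of these data known. Named genes are the 5 most and 3 least correlated with XIRP2 (1 feature per gene, the highest mean), 2 features without a symbol at each end, up to 3 members of each measured list by the smallest p over the 4 ages, and the features next to XIRP2. MYLPF, TPM3, features 5336 and 6100 and genes given only as members of a count are outside that rule and were named after their values were seen. Identifiers of 204 of 206 features with a symbol matched the gene table. Alternatives covered scaling, the animal block, array weights, array SD, position, and leaving out arrays or animals.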

Additional observations from a re-analysis of the deposited data

Results flagged for a closer look

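Within groups, 7 features whose levels are given were examined for a sample far from the others of its group, over 35 groups. There were 11 such samples, where chance gives about 1 in 20 groups. For XIRP2 they were pig D in the control (0.36, next sample 0.047), pig D at 6 h (0.76, next 1.14) and pig E at 2 d (0.65, next 0.21). For feature 7645, 2 places before XIRP2, they were pig L at 6 h (0.24), pig E at 2 d (0.55) and pig I at 21 d (0.64). For MYOZ1 in feature 7646, the adjacent place, they were pig G at 6 h (1.09) and pig I at 21 d (1.35). Pig E at 2 d thus stood apart in XIRP2 and in feature 7645. In ANPEP pig D at 2 d was high (0.93), and pig E was low in the controls of feature 5139 (0.76) and of feature 5127 (1.28). No cause was tested for any of these.

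Among the named features, the steps from 6 h to 2 d and from 2 d to 7 d were looked at, and no other pair of lesion ages. At least 1 of these steps passed the limma threshold for 11 of the 12 features named by their likeness to XIRP2 (MYH7 was the exception) and for TPM2. Those 12 were chosen over the same samples for following XIRP2 or opposing it. That choice partly set whether they passed, so their differences are a description and no p is given for them. Over all features 6.18% were called at 2 d against 6 h and 16.5% at 7 d against 2 d. At 2 d against 6 h JAK1 was at -0.50, HSPE1 at -0.38, feature 5139 at -1.25 and feature 5127 at -0.59, all lower at 2 d, while QDPR (0.27), feature 5748 (0.36) and TPM2 (0.35) were higher at 2 d. For TPM2, not among the 12, the limma adjusted p was 0.0487. At 7 d against 2 d ANPEP (0.45), JAK1 (0.55), UGP2 (0.40), HSPE1 (0.30), feature 5139 (2.36) and feature 5127 (1.37) were higher at 7 d. QDPR (-0.31), CKM (-0.26), POMGNT1 (-0.41), feature 5748 (-0.53) and feature 6516 (-0.50) were lower at 7 d. All features given for this step are among the 12 chosen by likeness.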

How the results depend on the processing

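XIRP2 kept its direction at 6 h, 7 d and 21 d under all alternatives run. At 2 d the sign was kept too, but the difference in the main fit (0.08) was smaller than its SE (0.112) and gives no direction. Leaving out each animal gave 1.16 to 1.33 at 6 h (1.33 without pig D), 0.01 to 0.13 at 2 d, 2.04 to 2.12 at 7 d and 2.18 to 2.28 at 21 d. Without the replicate block, unpaired, it was at 1.19, 0.08, 2.10 and 2.22, and the block changed no count of calls by over 1.5 times. Divided by array SD it was at 1.57, 2.81 and 2.95 at 6 h, 7 d and 21 d. At 7 d it was at 1.65 on deposited and 1.67 on median-centred values. Features called at 6 h (225) numbered 496 on deposited values (103 higher, 393 lower), 518 median-centred, 615 with array weights and 148 without the samples touched by the copied column (pig J at 6 h and pig I in the control). At 2 d (14) they numbered 28, 57 and 53 in the first 3 of these, 9 divided by array SD and 22 with only the 2 groups compared. At 7 d (484) they numbered 744 on deposited values (249 higher, 495 lower), 782 median-centred and 265 with array SD as a covariate (179 higher, 86 lower). At 21 d (281) they numbered 708 on deposited values (178 higher, 530 lower), 742 median-centred, 111 with array SD as a covariate (93 higher, 18 lower), 177 with the 6 h array of pig F in place, 175 after the running median and 173 with only the 2 groups compared. Leaving out each animal gave 151 to 257, 11 to 16, 369 to 491 and 169 to 325 (169 without pig I). List members called numbered 4, 0, 5 and 6 at the 4 ages. With array SD as a covariate there were 1, 3 and 2 at 6 h, 7 d and 21 d, and with array weights 7, 1 and 8 at 6 h, 2 d and 7 d. After the running median there were 2 at 6 h and 3 at 7 d, and median-centred 2 at 2 d and 12 at 7 d and at 21 d, as on deposited values at those later ages. Without single animals there were 2 to 4 at 6 h and 3 to 7 at 21 d. On deposited values HSPE1 was at -0.029, -0.41 and -0.66 at 6 h, 7 d and 21 d (median-centred -0.021, -0.40 and -0.63), and MYH7 was at -0.0065 at 7 d and -0.071 at 21 d (median-centred -0.047 at 21 d). Correlations between ages turned on deposited values for 7 d and control (-0.18), 7 d and 6 h (0.28), 21 d and 2 d (-0.31) and 21 d and 7 d (-0.11), and by rank for 2 d and control (0.098). Those with array SD turned on deposited values at 2 d (0.073), 7 d (0.58) and 21 d (0.61) and by rank at 2 d (0.038), and at 6 h r was 0.93. The causes were not tested. Dim features limit all of this, since no background signal is in the values used here.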
